A study of Mus musculus with 47 samples.

Results

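The small (40S) ribosomal subunit is built from 1 ribosomal RNA and a set of proteins, and the genes of those proteins are described here by the reads on their 3′ UTRs and by the loss and gain of a metabolic RNA label. The 30 genes were chosen by name: Rpsa, Rack1, Fau and 27 Rps genes, of 18854 genes that the 3′ UTR rows could be paired with. They correspond to 37 mRNA transcripts, and for each gene the transcript with the most covered T positions was used. P19 cells, a mouse embryonal carcinoma line, were compared undifferentiated (D0) and on day 6 of neuronal differentiation with 500 nM retinoic acid (D6). The label was 4-thiouridine (4sU), which cells build into new RNA and which reads as a C in place of a T after alkylation (SLAM-seq), so that the T>C conversion rate follows labeled RNA. It was given at 20 µM at D0 and at 500 µM at D6, so that conversion rates are compared between states only as shares. In the anabolic assay cells were collected while they took up 4sU, and the 0 h libraries of this assay are the unlabeled ones. In the catabolic assay cells were labeled, washed and kept in 10 mM UTP without 4sU, and 0 h is the end of labeling. The methods give the length of that labeling as 15 h in one place and as 13 h in another, and it is called 15 h here. Sample labels give 0, 1, 3 and 9 h and the methods 0, 3, 6 and 9 h, so that the time points that rest on the same hours in both are 0 and 9 h, and the others are called the second and the third time point. There were 47 libraries, 3 for each combination of state, assay and time point but 2 for the third catabolic time point at D6.

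The 40S subunit binds the mRNA, scans it for the start codon and decodes it. Proteins of its head, such as Rps3, Rps15, Rps20 and Rack1, surround the mRNA channel and its exit, while body and platform proteins such as Rps6, Rps9, Rps14 and Rpsa hold the ribosomal RNA in shape. Ribosomal protein mRNAs typically start with a C and a run of pyrimidines, the 5′ terminal oligopyrimidine (TOP) motif, through which mTOR signaling and the RNA-binding protein LARP1 control their translation and stability. Fau and Rps27a encode fusion proteins in which a ubiquitin-like protein or ubiquitin precedes the ribosomal protein, Rps27l is a paralog of Rps27, and Rack1 is a scaffold protein that also serves outside the ribosome.

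The sequence around the annotated start was read from RefSeq promoters (build GRCm38.p6, the assembly of mm10), which held 26 of the 30 genes and 31 starts outside the windows left out here. A tract was counted where a C followed by at least 4 C or T began within 10 bases of the annotated start, on the strand of the transcript only. It was found for 17 of 26 members (65.4%), for 20 of 34 large subunit genes (58.8%) and for 9297 of all 27025 genes (34.4%). A match is no proof of the start that the cells use, and no match says only that these letters are not in this window. The windows below run from 10 bases before the start to 20 bases from it and belong to members whose reads or label are described further on. Capitals mark the longest tract of a window, and shorter ones, such as those before it in Rps27 and Fau, stay in lower case.
Rack1, chr11:48800350-48800379, plus strand: gccgCTCTTTCTTTTTCTCCacagggtcgt
Rps9, chr7:3704031-3704060, plus strand: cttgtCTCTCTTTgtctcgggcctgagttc
Rps26, chr10:128626487-128626516, minus strand: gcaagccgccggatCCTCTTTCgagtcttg
Rps24, chr14:24490668-24490697, plus strand: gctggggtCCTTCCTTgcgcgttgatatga
Rps27, chr3:90213629-90213658, minus strand: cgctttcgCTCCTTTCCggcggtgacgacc
Fau, chr19:6057937-6057966, plus strand: gcccccaCTTCTTCCTCTTTCTTgactcca
Rps15a, chr7:118116128-118116157, minus strand: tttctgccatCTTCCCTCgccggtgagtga
The tract of Rack1 and that of Fau are the longest of the members, at 16 bases each. The next windows show members without a tract at the start given.
Rpsa, chr9:120127756-120127785, plus strand: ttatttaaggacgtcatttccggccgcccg
Rps25, chr9:44407704-44407733, plus strand: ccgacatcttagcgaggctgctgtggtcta
Rps15, chr10:80292421-80292450, plus strand: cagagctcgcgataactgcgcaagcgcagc
Rps27l has 2 annotated starts on chr9. The upstream window holds tracts, the first of them at its far end, and the downstream window holds none.
Rps27l upstream, chr9:66946076-66946105, plus strand: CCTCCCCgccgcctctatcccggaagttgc
Rps27l downstream, chr9:66946403-66946432, plus strand: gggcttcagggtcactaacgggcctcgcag

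The members have short 3′ UTRs, with a median of 64 bases against 854 over all mRNA transcripts, and 20 of the 30 are shorter than 100 bases (7.79% of all genes). A read counts for a member only where it lies in that interval, and short intervals hold few T positions at which a conversion can be seen. Conversion rates were therefore described for the 17 members that averaged 1000 or more covered T positions, a minimum that 48.6% of all genes reached. The other 13, whose rates are not given, were Fau, Rps12, Rps13, Rps18, Rps19, Rps2, Rps23, Rps27, Rps27a, Rps29, Rps3a1, Rps4x and Rps7. Mean coverage ran from 32.9 T positions per library for Rps4x to 170781 for Rps9, whose 3′ UTR lies at chr7:3706829-3706897. Rack1 (chr11:48806046-48806241) had 109629, Rps26 (chr10:128624529-128624600) 81083 and Rpsa (chr9:120131495-120132369) 50140. No multimapped read was counted on any row, so that reads shared with the many processed copies of these genes could be lost. Of the members, 16 had 0 reads in at least 1 library, and 7 had more than 1000 reads on average.

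**Figure D1:**
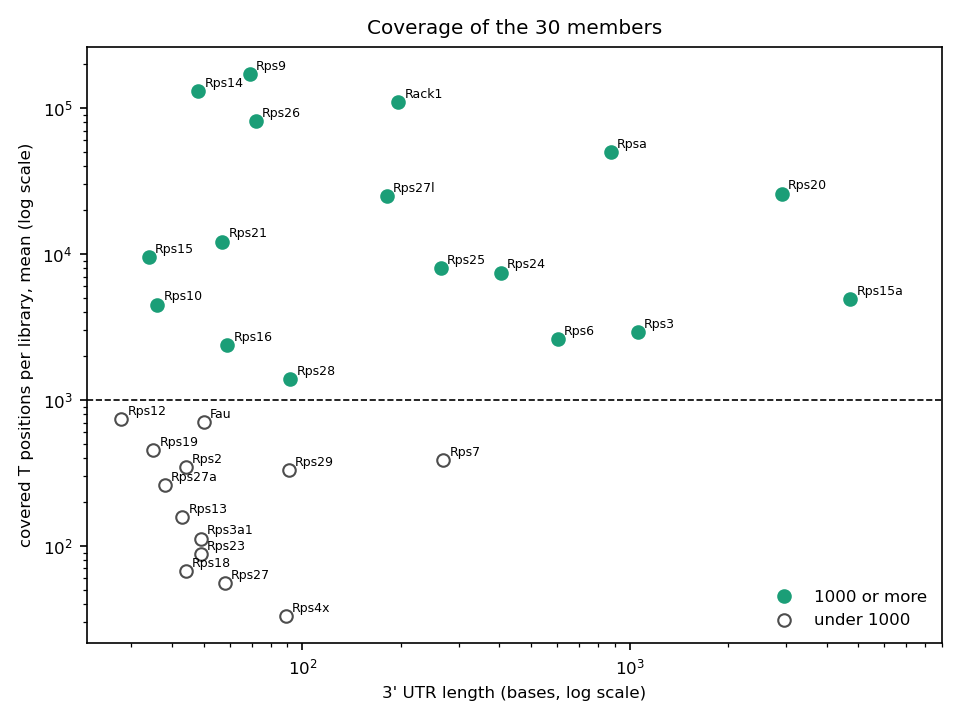
Length of the 3′ UTR in bases (x axis, log scale) against the mean number of covered T positions per library (y axis, log scale) of the 30 members. Filled points are the 17 members with at least 1000 covered T positions and open points the 13 below the dashed line at 1000, 12 of which have a 3′ UTR shorter than 100 bases.

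Libraries held 3447888 to 11677046 reads on 3′ UTRs at D0 and 1489528 to 7930149 at D6, and the members took 0.907% to 1.20% of them at D0 and 0.560% to 0.968% at D6. The labeled states were checked in the unlabeled libraries. The summed level of 7 markers of undifferentiated cells was 1209.6 to 1776.6 CPM (reads scaled to the library total) at D0 and 7.77 to 22.9 at D6, although Zfp42 and Dppa5a of this list were at 0 in both states. That of 8 neuronal markers was 468.8 to 655.2 at D0 and 8461 to 9908 at D6. Markers of neural progenitors (Sox1, Pax6, Nes) summed to 104 to 123 at D0 and 139 to 238 at D6, those of glia and endoderm to at most 8.11 in either state, and those of muscle to 16.2 to 19.2 at D0 and 0 at D6. The part of these other cells in the results below was not tested. The 4 shallowest libraries, with 1489528 to 1966286 reads, were D6 replicates 14 and 15 of the third catabolic time point and, in the anabolic assay, D6 replicate 40 of the second time point and replicate 53 of 9 h. In replicate 53 the median transcript had taken up 21.9% of the 15 h label, against 86.7% and 72.8% in the other libraries of that group. Counts of members without the shallow libraries are given for the tests and half-life fits that use them, except where 1 D6 library would be left.

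The first comparison asks whether the mRNA level of the members differed between the states without 4sU. Reads were compared as CPM, scaled to the total of 3′ UTR reads of each library, which is not a level per length and is set only against the same gene. None of the 25 members tested by edgeR's quasi-likelihood test with Benjamini-Hochberg adjustment was called in either direction, while 7.74% of all transcripts were called higher and 5.4% lower at D6. At an unadjusted p under 0.05 there were 2 of the 25 (8%, against 25.7% of all transcripts), and DESeq2 called 1, Rack1, as lower (4%, against 8.69%). Of the 25, 20 had a fold change below 0, with a median of -0.47 on the log2 scale against -0.04 over all transcripts. In bulk RNA, fewer cells that express a gene and less RNA per cell cannot be told apart.

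Rack1, the scaffold at the head of the subunit, had 1490.5, 1562 and 1493 CPM in the unlabeled D0 libraries and 963, 1023 and 1119 at D6. The groups did not overlap, and the log2 change was -0.56 (SE 0.21, adjusted p = 0.117). Rps26, which lines the mRNA exit, had 1192, 1197 and 1024 at D0 and 861, 679 and 801 at D6, again without overlap (log2 change -0.56, SE 0.22, adjusted p = 0.137). Rps20, a head protein, had 719, 1085 and 753 at D0 and 480.3, 643 and 569 at D6 (log2 change -0.62, SE 0.29, adjusted p = 0.201). None of the 3 passed the threshold, and how many of all transcripts had unlabeled groups without overlap was not counted.

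The 3 smallest fold changes belonged to Rps2, Rps29 and Rps24. Rps2 had 8.22, 3.09 and 9.71 CPM at D0 and 1.10, 0 and 3.44 at D6 (log2 change -2.16, SE 2.02). Rps29 had 2.37, 0.182 and 9.56 at D0 and 0, 4.44 and 0 at D6 (log2 change -1.33, SE 2.49). Rps24 had 68.1, 10.4 and 128 at D0 and 43.6, 21.1 and 42.3 at D6 (log2 change -0.89, SE 0.76). The groups overlapped for each of these members, and the standard errors of the first pair are as large as the changes or close to it.

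The 3 largest belonged to Rps7, Rps19 and Rps21. Rps7, a body protein, had 0.279, 0.364 and 4.56 CPM at D0 and 16.9, 19.7 and 6.02 at D6 (log2 change 3.08, SE 1.77). Rps19, the protein most often mutated in Diamond-Blackfan anemia, had 8.63, 2.91 and 0 at D0 and 6.79, 0 and 16.2 at D6 (log2 change 0.98, SE 2.23). Rps21 had 99.6, 142 and 118 at D0 and 182, 136 and 109 at D6 (log2 change 0.22, SE 0.35). The groups did not overlap for Rps7, whose level at D6 was 0 in 11 of the 23 libraries of that state, and they overlapped for the other 2. Rps14, the platform protein with the most reads, had 1712, 3353 and 2047 at D0 and 2664, 3008 and 2607 at D6 and was called higher only without D0 replicate 56, its highest D0 library.

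The same states were compared at 7 labeled time points, which share no libraries with the unlabeled ones or with each other. At these time points D6 cells had 500 µM 4sU and D0 cells 20 µM, so that state and dose cannot be told apart. Members were called lower at D6 at each of them and called higher at none. In the anabolic assay these were 4 of 24 members tested (16.7%) at the second time point, 3 of 25 (12%) at the third and 2 of 22 (9.09%) at 9 h, where 8.73%, 6.82% and 8.19% of all transcripts were called lower and 8.31%, 7.92% and 6.17% higher. In the catabolic assay they were 5 of 21 (23.8%) at 0 h, 4 of 25 (16%) at the second time point, 2 of 24 (8.33%) at the third and 7 of 25 (28%) at 9 h, where 7.55%, 8.22%, 19% and 10% of all transcripts were called lower and 7.33%, 9.21%, 4.58% and 12.2% higher. The share of members called was thus close to that of all transcripts at 9 h of the anabolic assay and below it at the third catabolic time point. Without D6 replicate 40 the count at the second anabolic time point was 6 of 25 (24%, against 10.3% of all transcripts called lower), and without D6 replicate 53 the members called at 9 h of the anabolic assay were 2 of 27, Rpsa and Rack1 (7.41%, against 10.7%). At the third catabolic time point the median log2 change of all transcripts was -0.71. The count of members called lower became 0 there without D0 replicate 31, 32 or 33. Of all transcripts, 0.0193%, 0.0261% and 0.0585% were then called lower. Leaving out D6 replicate 14 or 15 leaves 1 D6 library, so that the D0 libraries alone give the spread. Counts of calls from these fits are therefore not given. The median log2 change of all transcripts was -0.97 without replicate 14 and -5.30 without replicate 15.

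Rps20 was called at 5 of the 7 time points, Rack1 and Rpsa at 4 each, Rps26 at 3, Rps9, Rps27a and Rps27l at 2 each, and Rps12, Rps19, Rps21, Rps25 and Rps27 at 1 each. Of these 27 calls, 6 remained when any 1 library of the time point was left out, those of Rack1 and Rps20 at the second time point and at 9 h of the catabolic assay, of Rps26 at 9 h of the catabolic assay and of Rpsa at the second anabolic time point. The call of Rps20 ended in 5 of 6 such fits at the third anabolic time point, that of Rpsa in 5 of 6 at 9 h of the anabolic assay, and that of Rps26 in 5 of 6 at 0 h of the catabolic assay. Rps27 was tested at only 1 of the 7 time points, where its D6 libraries held 0 reads. At 9 h of the anabolic assay the D6 libraries held 0 reads of Rps27a. At the third catabolic time point they held 0 reads of Rps12 and Rps19. These rows passed the low-count filter through D0 libraries alone, so that their calls there add no support. The lowest adjusted p values were those of Rack1 and Rps20 at 9 h of the catabolic assay. Rack1 had 1625, 1855 and 1664 CPM at D0 and 713, 847 and 666 at D6 (log2 change -1.07, SE 0.14, adjusted p = 4.52e-04). Rps20 had 686, 809.7 and 713 at D0 and 291, 248 and 297 at D6 (log2 change -1.26, SE 0.17, adjusted p = 6.11e-04). At this time point Rpsa, Rps21 and Rps27l were lost without D0 replicate 34, 35 or 36 and Rps9 without D0 replicate 34 or 36 or D6 replicate 18. Leaving out D6 replicate 17 also ended the call of Rps21, and leaving out D6 replicate 16 that of Rps27l. Rpsa, the laminin receptor protein of the subunit, was called with the lowest p at the second anabolic time point (log2 change -0.97, SE 0.16, adjusted p = 0.00416).

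**Figure D2:**
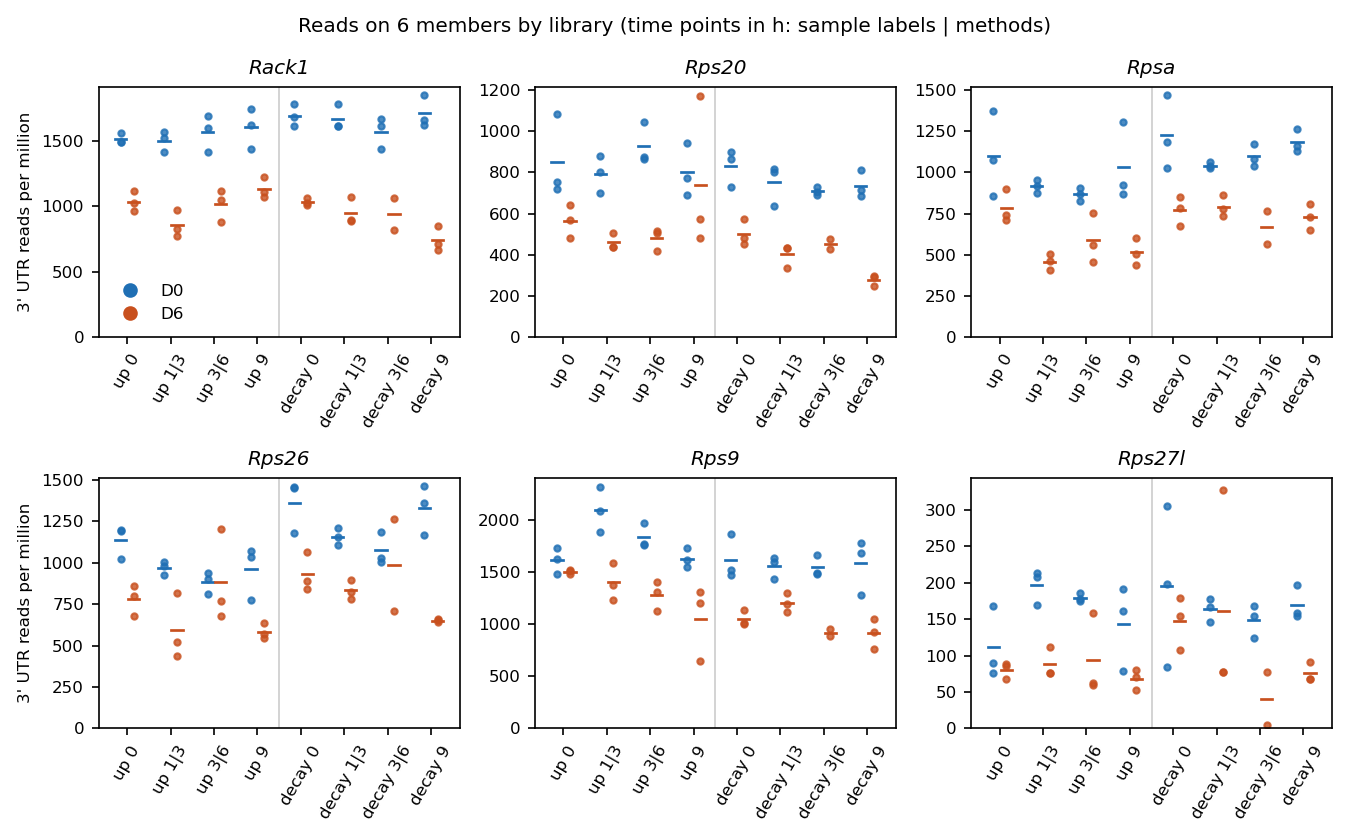
CPM on the 3′ UTRs of Rack1, Rps20, Rpsa, Rps26, Rps9 and Rps27l (y axes) in every library at each time point (x axis, up for the anabolic and decay for the catabolic assay, hours of the labels and the methods), with D0 in blue, D6 in orange and bars at the group means. The D0 libraries of Rack1 lie at 1413 to 1855 and its D6 libraries at 666 to 1228 without overlap.

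A model with terms for state and time point over all 47 libraries was added after the time points had been seen. State and 4sU dose cannot be told apart in its labeled libraries either, and only 3 libraries of each state had no 4sU. It called 12 of the 30 members (40%) lower at D6 and none higher, where 27.7% of all transcripts were called lower and 21.2% higher. The median log2 change was -0.68 over the members and -0.21 over all transcripts. Without the 2 D6 libraries of the third catabolic time point 14 of 29 members were called lower (48.3%, against 28.2% of all transcripts), without replicate 40 it was 13 of 30 (43.3%, against 28.2%), and without replicate 53 it was 14 of 30 (46.7%, against 28.5%). DESeq2 called 15 of 30 lower (50%, against 27.1%). The log2 change was -0.67 for Rack1 (SE 0.06, adjusted p = 7.69e-14), -0.69 for Rps20 (SE 0.10, adjusted p = 6.67e-09), -0.62 for Rpsa (SE 0.09, adjusted p = 1.24e-08) and -0.47 for Rps9 (SE 0.07, adjusted p = 1.42e-08). In the unlabeled libraries alone the change of Rps9 was -0.11 (SE 0.20, adjusted p = 0.811), and its groups overlapped. Rps26, Rps27l, Rps24 and Rps25 followed, at -0.45, -0.77, -0.96 and -0.77. Rps2, Rps13, Rps27 and Rps27a completed the list with few reads. Rps27, at 0 reads in every D6 library, passed the low-count filter through its D0 libraries alone. Rps15, with a mean of 3094 reads per library, and Rps14, the member with the most reads, were not called, and the change of Rps15 was -0.12 (SE 0.11, adjusted p = 0.418).

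Over the single libraries the lowest, median and highest CPM of Rack1 were 1413, 1613 and 1855 at D0 and 666, 1014 and 1228 at D6. Rack1 was the 1 member of 30 whose D0 and D6 libraries did not overlap, where 2.11% of all transcripts tested were lower without overlap and 1.79% higher. Rps20 had 636, 786 and 1085 at D0 and 248, 479 and 1170.1 at D6. Its single D6 library above the D0 range was replicate 53, 1 of the shallow libraries named above. Rpsa had 827, 1039 and 1466 at D0 and 406, 712 and 901 at D6, and the ranges overlapped slightly. Rack1, Rps20, Rpsa, Rps9 and Rps24 had a fold change below 0 at each of the 8 time points, unlabeled included. How many of all transcripts did so was not counted, so that this is a description only. In the model over all 47 libraries 27 of 30 members and 11608 of 20699 transcripts were below 0.

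**Figure D3:**
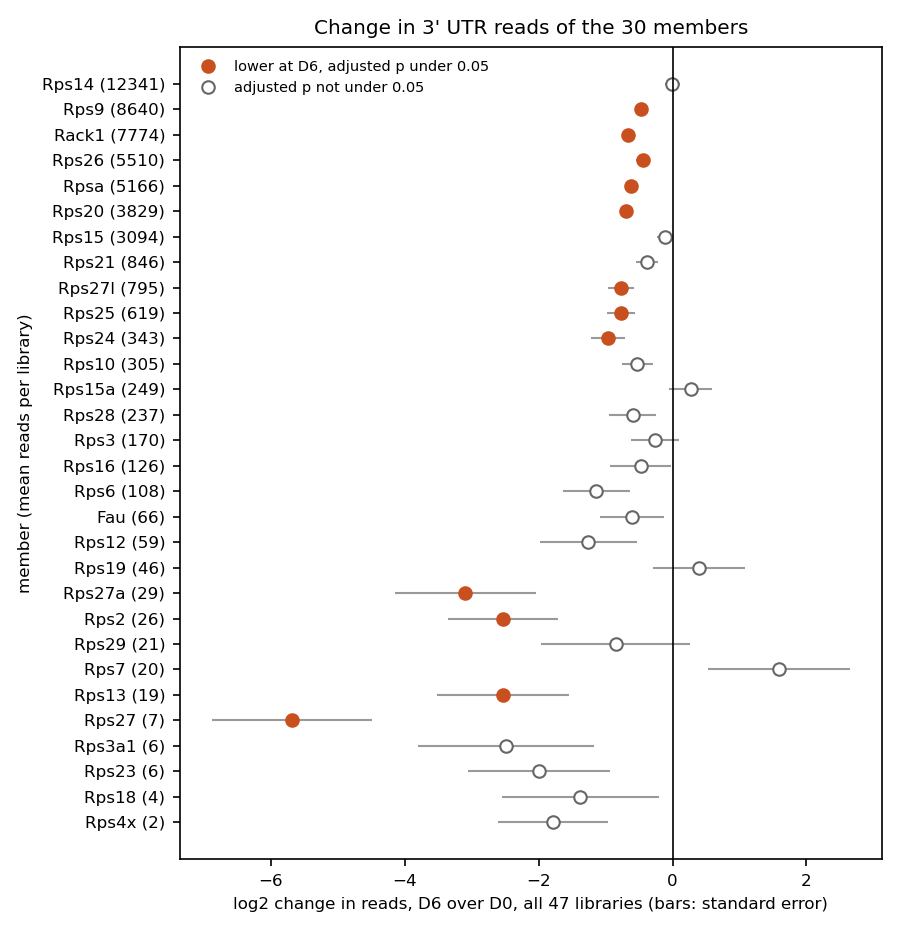
Log2 change in 3′ UTR reads, D6 over D0, from the model over all 47 libraries (x axis, bars are standard errors) for the 30 members in order of their mean reads per library (y axis, in parentheses). Filled points are the 12 members called lower, open points those not called, and standard errors widen below about 100 reads; the fitted value of Rps27, at 0 reads in every D6 library, depends on the prior count and is no estimate of size.

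Rps27 and Rps27l are paralogs of which Rps27l is a p53 target. The mRNA row of Rps27 held reads in 12 of 24 D0 libraries, with up to 6.79 CPM, and 0 reads in all 23 D6 libraries. Pooled over libraries, 313 of 170680432 reads at D0 stood against 0 of 95832375 at D6. Up to 54 of the D0 reads lay in 1 library. Reads within a library are no replicates, so that no fold is given for Rps27. At the third anabolic time point, where it was called, the D0 libraries had 5.36, 3.55 and 6.79 CPM. Rps27l had 0 reads in no library, with a lowest, median and highest of 76.6, 168 and 305 CPM at D0 and of 4.03, 77.6 and 328 at D6, and both states overlapped. Its log2 change over all libraries was -0.77 (SE 0.20, adjusted p = 8.70e-04).

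The ubiquitin fusion genes had few reads. Rps27a had 0.174 to 16.6 CPM at D0, with a median of 5.17, and 0 reads in 13 of 23 D6 libraries, with a highest value of 24.6. At 9 h of the anabolic assay it had 4.81, 5.74 and 7.78 at D0 and 0 in the 3 D6 libraries. Leaving out any 1 of these 6 libraries ended that call, with adjusted p values of 0.0541 to 0.0983. Fau had a lowest, median and highest of 0.627, 11.7 and 34.3 at D0 and of 0.953, 8.28 and 48.8 at D6 and was called at no time point (log2 change over all libraries -0.60, SE 0.48, adjusted p = 0.310).

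The remaining members under the coverage minimum were rarely seen in some libraries. Rps4x had 0 reads in 18 of 24 D0 and 22 of 23 D6 libraries, Rps3a1 in 11 and 20, Rps18 in 7 and 14, and Rps23 in 6 and 17. Rps13 had 0 reads in 4 D0 and 15 D6 libraries and Rps29 in 5 and 14. Rps12 had 3.56 to 21.3 CPM at D0 and 0 in 9 D6 libraries. At the third catabolic time point Rps12 and Rps19 had 0 reads in both D6 libraries, which are the shallow ones, against 7.47, 15.3 and 21.3 and 7.66, 6.43 and 3.80 at D0. For these rows a 0 limits the reads in a short interval and does not show that the mRNA is absent.

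The 4sU exposure itself was compared by setting 15 h of labeling against the unlabeled libraries of the same state. Assay and exposure cannot be told apart in this contrast. No member was called at D0 (0 of 24, background 0% in both directions), at D6 (0 of 22, background 0.0064% higher and 0.0448% lower) or for the difference between the states (0 of 25, background 0% in both directions). At an unadjusted p under 0.05 there were 319, 910 and 846 transcripts in these tests, of which 0, 4 and 1 were members, and DESeq2 called 3, 248 and 75 transcripts. The smallest p was that of Rps9, which had 1504, 1483 and 1519.6 CPM without 4sU at D6 and 1009, 1134 and 996 after 15 h. The groups did not overlap, with a log2 change of -0.59 (SE 0.14, adjusted p = 0.238), and DESeq2 called it lower, as it did 1.06% of all transcripts. At D0 Rps9 had 1479, 1621 and 1728 without and 1865, 1469 and 1519 with 4sU, and the difference between the states was -0.64 (SE 0.26, adjusted p = 1.000). Rps25 had 46.0, 89.9 and 39.7 without and 113, 74.7 and 215 with 4sU at D6 (log2 change 1.11, SE 0.45, adjusted p = 0.712). At D0 the smallest p belonged to Rps21 (99.6, 142 and 118 without, 233, 168 and 174 with 4sU, log2 change 0.67, SE 0.32) and Rps27l (168, 76.6 and 89.7 without, 198, 83.8 and 305 with 4sU, log2 change 0.81, SE 0.45).

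The decay assay asks how much of the 15 h label of each mRNA was left after 9 h. Over all 3′ UTRs the conversion rate was 1.39%, 1.49% and 1.38% of covered T positions at 0 h at D0 and 0.412%, 0.400% and 0.432% after 9 h. At D6 it was 4.87%, 4.78% and 4.24% at 0 h and 0.945%, 0.886% and 0.819% after 9 h. The label left was the rate at 9 h over the mean rate at 0 h of the same member and state, and its SD is that of the libraries at 9 h, without the spread at 0 h. Its median over the 17 covered members was 78.8% ± 0.518 at D0 and 58.2% ± 11.6 at D6, each the mean and SD of 3 libraries, where the median over all transcripts was 10.7% ± 6.56 and 5.79% ± 4.17. The large subunit stood at 69.1% ± 2.03 and 59.98% ± 18.6, above the members at D6 and below them at D0. These medians are a description and were not tested.

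No member was called as having lost label at D0 (0 of 17), where 26% of all transcripts were and 0.0353% were called higher. At D6 2 of 17 members were (11.8%), Rack1 and Rps15a, where 32.6% of all transcripts were and 0.0282% were called higher. That count rests on single libraries, since without D6 replicate 17 of the 9 h group it was 7 of 17 (41.2%, against 35.999% of all transcripts) and without replicate 7, 8 or 9 of the 0 h group it was 0 (against 12.3%, 13.5% and 15.6%). By the same test at D0, 1 member of 17 had an unadjusted p under 0.05 (5.88%, against 41.3% of all transcripts), and DESeq2 called the same member, Rpsa, as lower (against 40.8%). No member was called for the difference between the states (background 0% higher and 0.236% lower), with 2 members and 1568 transcripts at an unadjusted p under 0.05 and 330 transcripts called by DESeq2, so that the members called at D6 are not shown to differ from D0.

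Rack1 had conversion rates of 4.55%, 4.11% and 4.36% at 0 h and of 3.08%, 2.16% and 2.06% after 9 h at D6. The groups did not overlap, the log2 change was -0.83 (SE 0.22, adjusted p = 0.0227), and 56.2% ± 12.95 of the label was left. At D0 its rates were 1.2998%, 1.23% and 1.08% at 0 h and 1.11%, 0.953% and 1.04% after 9 h, with overlap and 86.0% ± 6.42 left (log2 change -0.22, SE 0.17, adjusted p = 0.310). The difference between the states was -0.61 (SE 0.30, adjusted p = 0.450). Leaving out D6 replicate 7, 8 or 9 of the 0 h group ended the call at D6, with adjusted p values of 0.0804, 0.0565 and 0.0596.

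Rps15a, a body protein with the longest interval of the members at 4726 bases, was the other member called at D6. Its rates were 4.47%, 5.43% and 14.7% at 0 h and 0.326%, 0% and 0.0281% after 9 h at D6, with 1.44% ± 2.21 left (log2 change -6.03, SE 1.80, adjusted p = 0.0323). At D0 they were 2.37%, 2.36% and 0% at 0 h and 0.293%, 0.0429% and 0.0155% after 9 h, with 7.43% ± 9.70 left (adjusted p = 0.173). It was the member with the least label left in both states. It rested on a mean of 4912 covered T positions per library, and leaving out D6 replicate 7, 8, 9 or 18 ended the call, with adjusted p values of 0.0610 to 0.0927.

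Rps9, Rps14 and Rps26 had lower rates at 9 h in every D6 library, without overlap and short of the threshold, with adjusted p values of 0.0520, 0.0566 and 0.0616. In this test 13518 of 14174 transcripts had a fold change below 0 at D6, and how many had no overlap was not counted. Rps9 went from 2.75%, 2.89% and 3.33% to 2.06%, 2.40% and 1.83% at D6, and from 0.864%, 0.766% and 0.613% to 0.589%, 0.626% and 0.517% at D0. It kept 70.02% ± 9.56 at D6 and 77.2% ± 7.43 at D0. Rps14 kept 67.8% ± 16.2 at D6 and 79.1% ± 12.2 at D0, and Rps26 kept 70.1% ± 6.65 and 93.9% ± 10.4. Rpsa, called at D0 by DESeq2, went from 0.650%, 1.02% and 0.709% to 0.484%, 0.279% and 0.499% at D0 (53.02% ± 15.5 left, log2 change -0.91, SE 0.36, adjusted p = 0.0520) and from 2.31%, 3.08% and 2.12% to 2.72%, 2.10% and 1.80% at D6 (88.2% ± 18.7 left).

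Because all 3′ UTRs lost label together, a test relative to the conversion rate of each library was added after the data had been seen. It called 5 of 17 members as keeping more label than 3′ UTRs at large at D0 (29.4%), where 2.18% of all transcripts were called higher and 2.34% lower. It called 5 of 17 at D6 as well (29.4%), where 0.755% were called higher and 0.106% lower. Rps9, Rps14, Rps26 and Rack1 were called in both states, Rps27l at D0 and Rpsa at D6. The log2 change relative to all 3′ UTRs was 1.41 and 1.86 for Rps9, 1.45 and 1.82 for Rps14, 1.70 and 1.87 for Rps26, and 1.56 and 1.55 for Rack1, at D0 and D6 in this order. The largest adjusted p among them was 6.73e-07 at D0 and 0.00588 at D6, and each of the 4 kept its call under all 10 alternatives in both states, none of which subtracts the rate without 4sU. For Rps26 that rate came to 52.02% of the rate after 15 h at D0 and 14.5% at D6, and for Rack1 to 15.8% and 4.49%. Rps27l (1.21, SE 0.37, adjusted p = 0.0430) lost its call under 7 of 10 alternatives and Rpsa (2.20, SE 0.31, adjusted p = 0.00692) lost it without D6 replicate 9. On this scale the median log2 change of all transcripts was -0.71 in both states, so that values near 0 are above the typical transcript. Rack1 was therefore lower at 9 h than at 0 h of D6 and higher relative to all 3′ UTRs. Of the large subunit genes, 13 of 30 were called higher on this scale at D0 and 6 of 31 at D6.

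**Figure D4:**
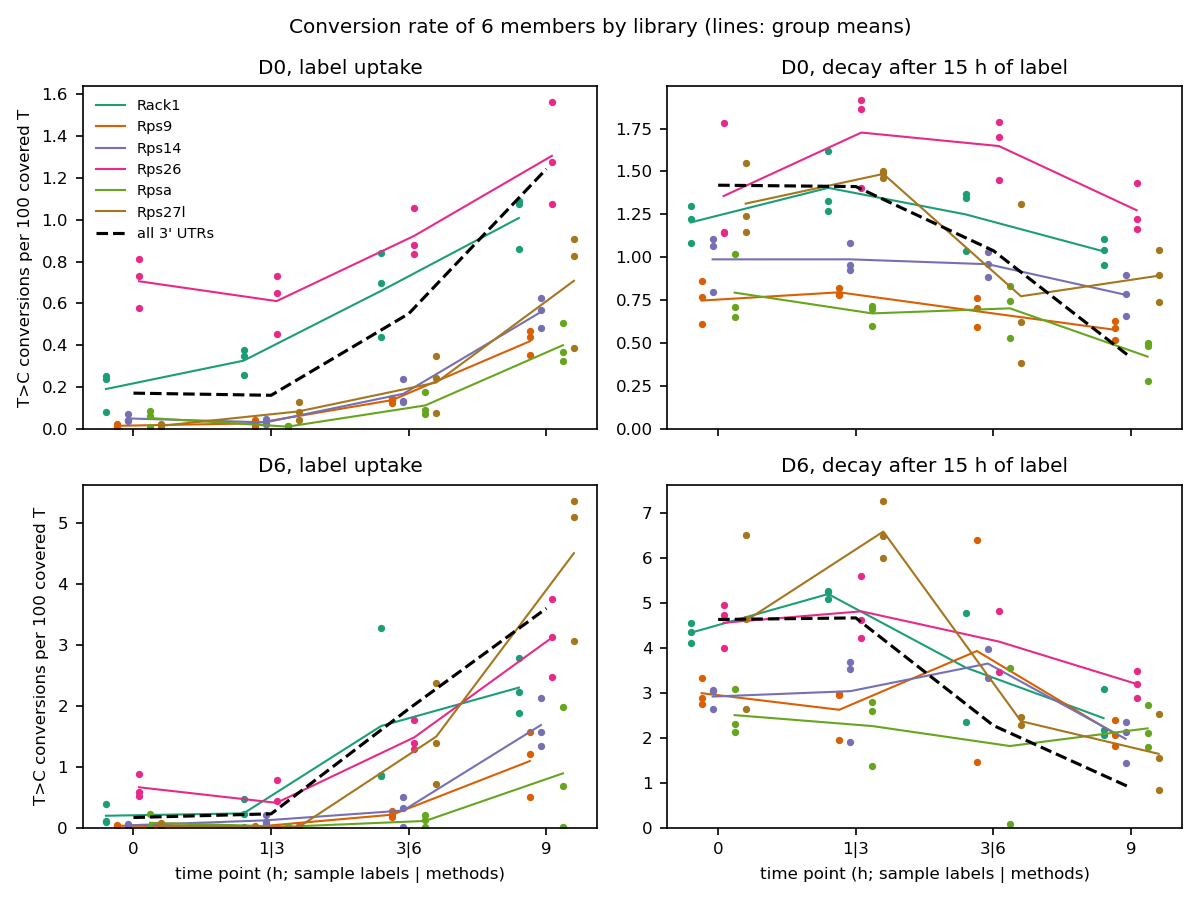
T>C conversions per 100 covered T positions (y axes) of Rack1, Rps9, Rps14, Rps26, Rpsa and Rps27l in every library at D0 (top) and D6 (bottom) against the time point in h of uptake (left) and of decay (right), with lines through the group means and a dashed line for all 3′ UTRs. The dashed line of decay at D0 falls from a mean of 1.42 at 0 h to 0.415 at 9 h, while Rack1 goes from 1.20 to 1.03; the rates at the second time point are close to those at 0 h for all 3′ UTRs.

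At D0 the members with most label left were Rps16, a head protein, with 493% ± 221 and Rps6, the target of S6 kinases, with 231% ± 285. Values above 100% mean that the rate was higher at 9 h than at 0 h. With the spread at 0 h included the SE of these shares was 508.8 percentage points for Rps16 and 194 for Rps6. Rps16 had rates of 0.944%, 0% and 0% at 0 h and of 1.93%, 1.97% and 0.747% after 9 h at D0, from a mean of 2387 covered T positions per library. At D6 it went the other way, from 3.12%, 12.1% and 7.18% to 0.0835%, 1.54% and 0.0877%, with 7.62% ± 11.2 left, and the difference between the states did not pass the threshold (log2 difference -6.05, SE 2.40, adjusted p = 0.356). At D6 Rps10 kept 183% ± 28.1 (1.46%, 4.08% and 0.643% at 0 h, 3.34%, 4.42% and 3.52% after 9 h), against 31.98% ± 13.7 at D0 (0.778%, 0.914% and 0.684%, then 0.363%, 0.146% and 0.251%), and the SE with the spread at 0 h was 93.4 percentage points at D6. Rps21 kept 99.7% ± 13.97 at D6 (92.2%, 91.1% and 115.8% by library) and 61.9% ± 34.1 at D0. The shares of Rps6 by library at D0 were 144.9%, 0% and 549.1%.

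Several members had conversions without 4sU. Among the better covered members, the unlabeled rates of Rps26 were 0.577%, 0.811% and 0.729% at D0 and 0.887%, 0.518% and 0.583% at D6, and those of Rps21 were 0.422%, 1.26% and 0.377% at D0 and 1.18%, 1.34% and 0.164% at D6. Over all 3′ UTRs the unlabeled rate was 0.160%, 0.207% and 0.144% at D0 and 0.171%, 0.190% and 0.136% at D6. With these rates subtracted, Rps26 kept 87.3% at D0 and 65.0% at D6, and Rps21 kept 33.6% and 99.6%. Subtraction thus changed the D0 value of Rps21 by more than 1.5 times. Among the less covered members, Rps3 had 0.583% at D0 and 0.634% at D6 without 4sU. Subtraction took its share left at D0 from 35.1% ± 34.5 to 9.89%, and at D6 from 9.11% ± 12.9 (2 libraries) to -0.446%. The mean unlabeled rate at D6 was 0.799% for Rps16, above 2 of its 3 libraries after 9 h of decay and above their mean, and 0.349% for Rps15a, above all 3 of its libraries, so that their shares left of 7.62% and 1.44% became -3.45% and -2.94%. Rack1 had 0.190% ± 0.0962 at D0 and 0.195% ± 0.174 at D6 without 4sU, close to the rates of all 3′ UTRs, and Rps9 had 0.0144% ± 0.00879 and 0.0315% ± 0.00550, below them.

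The uptake assay asks how much of the 15 h rate was reached after 9 h of 4sU. The median over the members was 68.2% ± 13.04 at D0 and 36.9% ± 19.96 at D6, again over 3 libraries, where the median over all transcripts was 89.5% ± 3.57 and 60.4% ± 34.1. Without D6 replicate 53 the members stood at 47.8% and all transcripts at 79.7%. The large subunit had 67.6% ± 3.23 and 50.9% ± 26.9, the latter 65.4% without replicate 53. No member was called for the difference between the states (0 of 17, background 0% in both directions), with 1 member and 1036 transcripts at an unadjusted p under 0.05 and 163 transcripts called by DESeq2. Without replicate 53 it was again 0 of 17, where 0.0555% of all transcripts were called lower. The smallest p was that of Rack1, whose rates after 9 h were 1.08%, 1.09% and 0.859% at D0 and 2.78%, 1.89% and 2.23% at D6. It had reached 83.8% ± 10.8 of its 15 h rate at D0 and 53.1% ± 10.4 at D6 (log2 difference -0.66, SE 0.28, adjusted p = 0.648).

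Rps25, at 70.001% ± 61.98 and 9.76% ± 16.5, had the next smallest p (log2 difference -2.80, SE 1.89, adjusted p = 0.920). Its D6 rates were 1.83%, 0% and 0.0288% after 9 h of uptake against 5.90%, 6.86% and 6.30% after 15 h, so that the D6 value rests on a single library. Rps9 and Rps14 had reached 56.02% ± 8.03 and 56.6% ± 7.33 at D0, and 36.6% ± 18.3 and 57.8% ± 13.9 at D6. Rps27l had D6 rates of 5.11%, 3.06% and 5.37% after 9 h of uptake, which is 98.0% ± 27.4 of its 15 h rate, against 53.9% ± 21.3 at D0. In the decay assay it went from 6.52%, 4.65% and 2.64% to 0.843%, 2.53% and 1.55% at D6 (35.7% ± 18.5 left) and from 1.55%, 1.15% and 1.24% to 0.740%, 0.896% and 1.04% at D0 (68.0% ± 11.5 left). The differences between the states of Rps27l did not pass the threshold for uptake (adjusted p = 0.979) or for decay (adjusted p = 0.678).

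**Figure D5:**
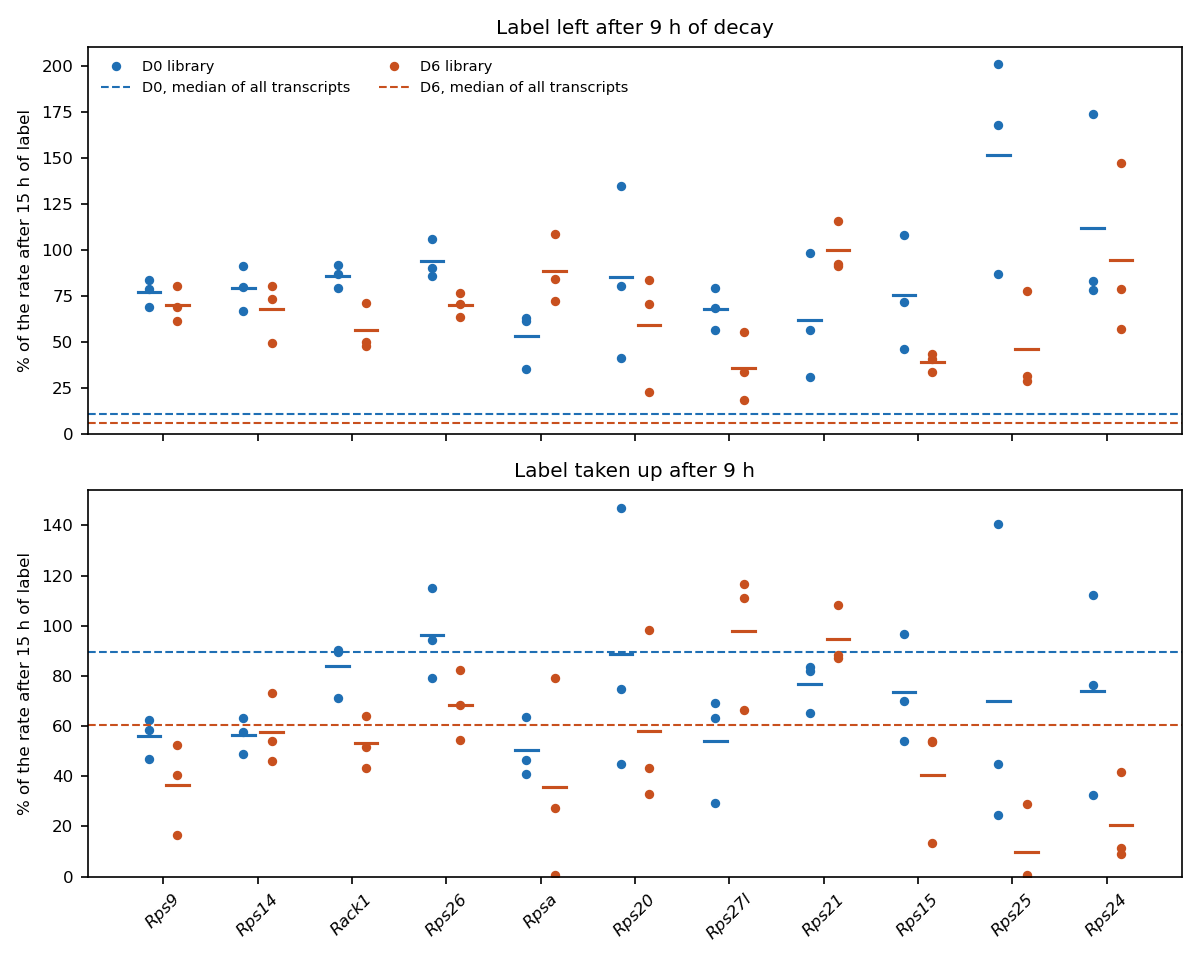
Share of the 15 h conversion rate, in %, that was left after 9 h of decay (top) and reached after 9 h of uptake (bottom) for the 11 members with the highest coverage (x axis), with points for libraries, bars for means and dashed lines for the medians of all transcripts. The points of label left lie above the dashed lines at 10.7% for D0 and 5.79% for D6, and Rps27l has a mean uptake of 53.9% at D0 and 98.0% at D6.

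Half-lives were fitted to all libraries of a state with the hours of the methods and kept at an R squared above 0.6. No member had a decay half-life that passed in either state, where 15.6% of all transcripts passed at D0 and 16.9% at D6. A synthesis half-life passed for 4 of 17 members at D0, where 22.1% of all transcripts passed. It was 11.8 h for Rps9 (SE 1.997), 11.96 h for Rps14 (SE 2.21), 12.2 h for Rps27l (SE 2.51) and 4.73 h for Rack1 (SE 0.682). At D6 Rps26 passed, at 8.04 h (SE 1.41, R squared 0.627), where 10.2% of all transcripts did. Without the 4 shallowest D6 libraries no member passed at D6 for synthesis or decay, where 17.5% and 20.7% of all transcripts did, and Rps26 stood at 8.13 h (R squared 0.594). The synthesis fits take the rate after 15 h of 4sU as the plateau. Where label was still rising at that time the fitted value is too short, and this was not tested. Rack1, at 4.73 h, kept 86.0% ± 6.42 of its label after 9 h of decay at D0. From 0 and 9 h only, decay half-lives passed for 3 of 17 members at D0 and 9 of 17 at D6, where 35.5% and 51.4% of all transcripts passed. The 9 at D6 had a median of 8.02 h, which leaves out the members that did not pass. They were 17.5 h for Rps9 (SE 3.54), 16.03 h for Rps14 (SE 4.03), 17.6 h for Rps26 (SE 3.33) and 10.8 h for Rack1 (SE 1.70), which lie beyond the 9 h that were measured. The other 5 lie within it, at 8.02 h for Rps25 (SE 2.33), 6.66 h for Rps15 (SE 2.46), 2.60 h for Rps3 (SE 2.30), 2.42 h for Rps16 (SE 2.76) and 1.47 h for Rps15a (SE 6.05). For Rps3, Rps16 and Rps15a the share left was -0.446%, -3.45% and -2.94% with the unlabeled rate subtracted. Their SEs are close to the values or above them, so that these 3 are no estimates of size. With the hours of the labels the synthesis half-life of Rps9 at D0 was 8.28 h and that of Rack1 2.72 h, so that these values depend on hours that the sources give differently.

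The factors that assemble the 40S subunit, 16 genes, are the other genes of this pathway. Without 4sU 6 of the 15 tested were called lower at D6 and none higher (Bysl, Emg1, Ltv1, Noc4l, Pno1 and Tsr1), which is 40%, where 5.4% of all transcripts were called lower and 7.74% higher. Their median log2 change was -1.09. Ltv1, which leaves the precursor of the subunit late in assembly, had 86.5, 62.6 and 74.7 CPM at D0 and 12.9, 13.05 and 14.9 at D6 (log2 change -2.45, SE 0.56). Pno1, a late assembly factor that acts with the nuclease Nob1, had 198, 105 and 240.2 at D0 and 26.95, 24.98 and 56.6 at D6 (log2 change -2.30, SE 0.45). The groups did not overlap for either gene. Over all 47 libraries, where 27.7% of all transcripts were called lower, it was 13 of the 16 factors (81.25%) with a median of -1.11, against 12 of 30 members with a median of -0.68 and 21 of 46 large subunit genes with a median of -0.69. After 9 h of decay the factors had a median of 11.7% ± 8.68 of their label left at D0 and 6.02% ± 4.63 at D6, near the medians of all transcripts, and none was called higher relative to all 3′ UTRs.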

How the data were processed

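Libraries of 3′ ends (QuantSeq) were made from alkylated total RNA. The authors mapped the reads and counted conversions over mm10 3′ UTR intervals with SLAMdunk 0.3.3, a version from the submitters' processing notes, and called polymorphisms before counting. The deposited files hold, for each interval, counts of reads, covered T positions, T>C conversions and reads with a conversion, a conversion rate that the authors gave as a fraction, and CPM. Only the counts were analysed here. The deposited CPM served in an alternative, and the fraction was not used. A transcript with several intervals was given their sum, identical intervals entered totals once, and CPM was recomputed from these totals. Row names are RefSeq mRNA names, while the methods name a GENCODE annotation.

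Reads were tested with edgeR 4.0.16 in R 4.3.3, by its quasi-likelihood test with TMM factors, the default low-count filter and Benjamini-Hochberg adjustment over all transcripts at 0.05. Conversions were tested in the same way with the log of covered T positions as offset, on transcripts with a mean of at least 1000 of them. Both tests recovered changes put into data simulated with a single fixed dispersion. For conversions, rows with few of them were left out of the simulation, so that sparse or more variable members were not covered. Alternatives were DESeq2 1.42.0, other filters, scalings and coverage minimums of 200 and 5000, reads with a conversion, background subtraction, other hours, and each library left out in turn. Half-lives came from least-squares fits in Python 3.11.15 with numpy 2.4.6 and pandas 2.3.3, up to 5000 min. Figures were drawn with matplotlib 3.10.9. The design text speaks of biological duplicates or triplicates and gives no batch. Reads carry no molecular identifiers, and errors are those between libraries.

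The members and lists were chosen with earlier results of these data known. Values per library are given by a rule: the 3 largest and 3 smallest read changes without 4sU, any member called against the direction of most, the 2 smallest p of each other test, the 2 members with most and least label left in each state, both paralogs, the fusion genes, Rack1, members under the coverage minimum, and 2 assembly factors. Rps14, Rps15, Rps20, Rps25, Rpsa and Rps9 were described beyond this rule after their values had been seen.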

Additional observations from a re-analysis of the deposited data

Results flagged for a closer look

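A second row named for Rps27 belongs to a non-coding transcript (chr3:90212667-90213648, 4 intervals, 575 bases) and enters no comparison. It held reads outside the mRNA 3′ UTR in 4 of 24 D0 libraries, with up to 54 reads in a library, and in 2 of 23 D6 libraries, with up to 33, although the mRNA row held 0 reads in every D6 library. It was singled out because these are reads in data outside the main measurement. No library without the gene serves as a control for it.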

How the results depend on the processing

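No paired analysis was possible because the labels number the libraries from 7 to 72 without repeating a number between groups. Read changes: the count of members called lower without 4sU was 0 and became 1, Rack1, with DESeq2 and with 1 fit of all 47 libraries, where 8.69% and 3.87% of all transcripts were called lower. After 15 h of 4sU at D6 DESeq2 called 1 member lower, Rps9. Label left: at D0 the count called lower became 1, Rpsa, with DESeq2, with a coverage minimum of 5000 and with reads with a conversion, where 40.8%, 49.8% and 24.4% of all transcripts were. Relative to all 3′ UTRs 5 members were called higher. At D6 the count called lower became 5 with DESeq2, 4 of 11 with a coverage minimum of 5000, 3 of 17 with reads with a conversion (50.96%, 56.1% and 22.4% of all transcripts) and 0 relative to all 3′ UTRs, where 5 were called higher. On the relative scale the log2 change of Rack1 is 1.55, a change of sign that follows from dividing by the rate of all 3′ UTRs. On that relative scale DESeq2 called 8 members higher and 1 lower at D6, against 2.004% and 7.51% of all transcripts. The median share left at D0 was 75.0% with the background subtracted, 71.9% and 82.0% with coverage minimums of 200 and 5000, and 80.0% with reads with a conversion.

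Half-lives: the members with a decay half-life at D0 and D6 numbered 10 and 14 with no minimum of R squared, 3 and 9 from 0 and 9 h only, and 5 and 6 with group means fitted. Over all transcripts the shares that passed were 76.5% and 87.5%, 35.5% and 51.4%, and 45.4% and 50.7%. Those with a synthesis half-life numbered 17 and 15, 9 and 7, and 11 and 8 under the same settings, 9 and 6 with the hours of the labels, and 0 at D6 with the background subtracted or without the 4 shallowest D6 libraries, a setting chosen after seeing the data. Over all transcripts the shares were 91.0% and 92.2%, 32.9% and 23.5%, 47.7% and 53.9%, 43.7% and 24.7%, 9.37%, and 17.5%. The share of reads on the members was 0.747% at D0 and 0.533% at D6 with all rows as deposited, and 0.398% and 0.197% with the deposited CPM.

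With each library left out in turn, members called lower numbered 1 to 6, 0 to 9 and 0 to 2 at the labeled anabolic time points. They numbered 0 to 5, 2 to 5 and 3 to 7 at 0 h, the second time point and 9 h of the catabolic assay. At the third catabolic time point it was 0 without any 1 D0 library, and fits that leave 1 D6 library there are not counted. Of all transcripts, the share called lower ranged in the same fits from 2.45% to 10.3%, 1.19% to 17.5% and 1.23% to 10.7% in the anabolic assay. In the catabolic assay it ranged from 4.32% to 5.82%, 3.17% to 13.4% and 5.21% to 11.4%, and from 0.0193% to 0.0585% at the third time point. Fewer members were called at the second anabolic time point without D0 replicate 58, 59 or 60, at the third without D6 replicate 43 or 44 or any D0 replicate, at 9 h of that assay without D6 replicate 52 or 54 or any D0 replicate, at 0 h of the catabolic assay without D6 replicate 7, 8 or 9 or D0 replicate 25 or 27, at its second time point without D6 replicate 10 or D0 replicate 28, 29 or 30, and at 9 h without D6 replicate 18 or D0 replicate 34, 35 or 36. Besides D6 replicate 40, named above, higher counts called lower came without D6 replicate 42 (6 of 24 at the second anabolic time point, 25% against 5.78% of all transcripts). They also came without D6 replicate 45 (9 of 28 at the third anabolic time point, 32.1% against 17.5%) and replicate 11 (5 of 27 at the second catabolic time point, 18.5% against 7.06%). For label left at D6 it was replicate 17 (7 of 17 called lower, 41.2% against 35.999%). Without 4sU 0 to 1 were called higher, against 4.33% to 8.51% of all transcripts. For label left 0 to 1 were called higher (0% to 0.0427%) and 0 to 1 lower (16.97% to 26.6%) at D0 and 0 to 7 lower at D6 (12.3% to 35.999%). The median share left at D0 ranged from 71.4% to 79.0%. A fit without 1 library also has fewer samples, and the cause of other changes was not tested. Depth limits the conversion rates, since 13 of 30 members had under 1000 covered T positions.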
